A study of Homo sapiens with 8 samples.

Results

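A set of 619 CpG sites was partly methylated, and at levels that were similar by a fixed limit, in each of 4 human prostate cell lines. A site belonged to this set when its beta value, which gives how much of the signal at that CpG came from methylated DNA, lay from 0.2 to 0.8 in every line and its spread, the highest beta minus the lowest, was below 0.3. The 619 sites were 2.25% of the 27541 sites with a beta in all 4 lines. The betas themselves chose the sites, so the levels, spreads and order of the lines given for them are descriptions without a test.

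The study set 3 lines from metastatic prostate carcinoma, DU145, LNCaP-FGC and PC3, beside RWPE-1, which the labels call a normal control. RWPE-1 is prostate epithelium immortalized with papillomavirus sequences, so the control is itself an established line, and LNCaP-FGC is the androgen-sensitive line of the cancer group. The labels name no treatment, time point or repeat culture. Genomic DNA of each line was bisulfite-converted and hybridised once to an Illumina HumanMethylation27 array, so n = 1 per line and the array's own error is unknown.

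CpG methylation on 1 DNA molecule is either present or absent, so a beta between the extremes in a population of cells is an average over molecules. It can arise when 1 parental copy is methylated, as in the control regions of imprinted genes, when cells of a line differ from one another, or when methylation varies from molecule to molecule. In gene promoters, CpG-rich sequence is usually free of methylation and CpG-poor sequence is often methylated, and long partly methylated stretches are known from cultured and cancer cells. The array reads the average, and these states cannot be told apart from a beta. Without intensities or detection p-values, the strength of the signal behind the betas of this set is also unknown. Partly methylated here means only that a beta lay within the limits. Sites are given by the array's identifiers, because the tables used here pair them with neither a gene nor a position, and the labelled tissue could not be checked against marker genes for the same reason.

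Partial methylation was counted in single lines and across them. A site partly methylated in all 4 lines counts in each line, so the share in all 4 cannot exceed that in any line. Betas from 0.2 to 0.8 were found at 19.4% of all sites in DU145, 21.5% in RWPE-1, 24.3% in LNCaP-FGC and 24.7% in PC3. Of the 27541 sites, 15198 (55.2%) were partly methylated in no line, 4818 in 1 line, 3868 in 2 lines, 2442 in 3 lines and 1215 (4.41%) in all 4. The spread limit divided these 1215 sites almost evenly, into the 619 members and 596 sites at which the lines were further apart. The members made up 11.6% of the partly methylated sites of DU145, 10.5% of those of RWPE-1, 9.26% of those of LNCaP-FGC and 9.09% of those of PC3. A further 5 sites had a blank beta in at least 1 line and partial methylation in the lines that were read, and they were left out.

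The 2 members on which the lines lay closest were both in the upper part of the range. Site cg05585544 had betas of 0.791 in RWPE-1, 0.781 in PC3, 0.788 in DU145 and 0.786 in LNCaP-FGC, a spread of 0.0105. Site cg01095395 had 0.706, 0.695, 0.703 and 0.697 in the same order, a spread of 0.0112. At both sites RWPE-1 was the highest line, by less than 0.004 over DU145.

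The 2 members with the mean nearest 0.5 were not sites at which the lines all read 0.5. Site cg04377282 had a beta of 0.338 in RWPE-1, with 0.523 in PC3, 0.619 in DU145 and 0.516 in LNCaP-FGC. The cancer lines averaged 0.553 ± 0.0572 there (SD, n = 3 different lines), and the control lay below all 3. Site cg07675169 had 0.591 in RWPE-1, with 0.604 in PC3, 0.493 in DU145 and 0.308 in LNCaP-FGC, so LNCaP-FGC was the line apart and the control lay beside PC3.

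The members leaned towards the methylated end of the range. Their mean over the 4 lines had a median of 0.5998, and it was above 0.5 at 423 sites (68.3%). Sites with a mean from 0.6 to 0.7 were the most frequent class, with 193 members, followed by 116 members from 0.7 to 0.8 and 114 from 0.5 to 0.6. Below that, 82 members had a mean from 0.4 to 0.5, 86 from 0.3 to 0.4 and 28 from 0.2 to 0.3. All 4 lines were above 0.5 at 300 members (48.5%) and below it at 108 (17.4%), and the lines lay on either side of 0.5 at the remaining 211 (34.1%). A level near 0.5 in every line was rare: all 4 betas were from 0.4 to 0.6 at 31 members.

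**Figure D1:**
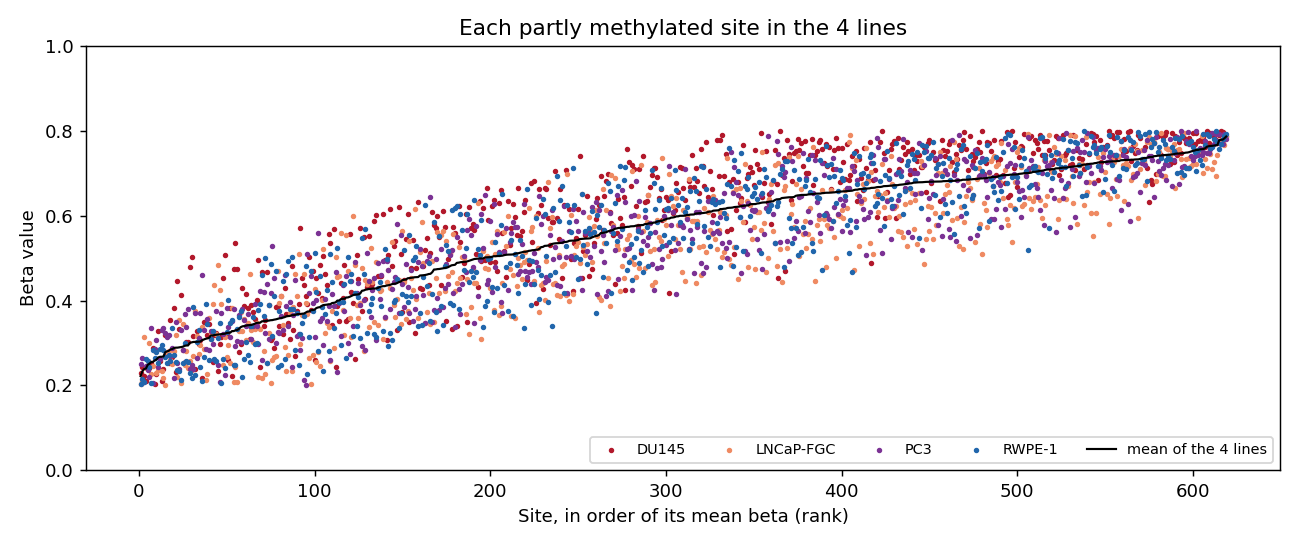
Beta value (vertical axis, 0 to 1) of each of the 619 partly methylated sites in the 4 lines (coloured points), with sites ordered by their mean beta (black line). More than 2 in 3 sites, 423 of 619, had a mean above 0.5. The points of the 4 lines overlap, but as deposited DU145 was the highest line at 59.6% of the sites with a mean from 0.6 to 0.7.

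The spread among the lines was broad within the limit that the rule set. Its median was 0.172 and its quartiles were 0.109 and 0.238. Spreads below 0.05 were found at 35 members, below 0.1 at 137 and below 0.2 at 374. For comparison, the median spread was 0.0483 over the 1570 sites above 0.8 in all lines and 0.0237 over the 12839 sites below 0.2 in all lines, where the ends of the scale leave less room. Over all 27541 sites it was 0.104. These include the sites at the ends of the scale, and the rule caps the spread of the members, so nothing is read from that comparison. Members with a mean from 0.4 to 0.5 had a median spread of 0.212, against 0.0928 for a mean from 0.2 to 0.3 and 0.0986 for a mean from 0.7 to 0.8. The rule caps the spread more tightly near 0.2 and 0.8, so this dependence is in part built in. Of the 137 members with a spread below 0.1, 81 had a mean of at least 0.6, 33 a mean below 0.4 and 23 a mean between.

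**Figure D2:**
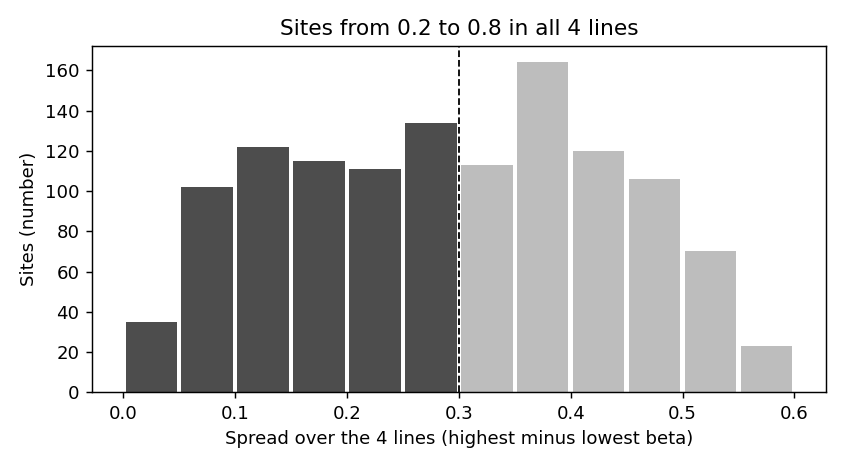
Number of sites (vertical axis) by spread over the 4 lines (horizontal axis, highest minus lowest beta, in steps of 0.05) for the 1215 sites with betas from 0.2 to 0.8 in all lines. Dark bars are the 619 members, light bars the 596 sites beyond the limit of 0.3 (dashed line), with 134 sites in the last step inside the limit and 113 in the first step outside it.

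The limits of the rule cut through a continuous range of sites. Just inside the spread limit, cg04987894 had betas of 0.538 in RWPE-1, 0.718 in PC3, 0.419 in DU145 and 0.698 in LNCaP-FGC. Site cg08654334 had 0.443, 0.593, 0.619 and 0.320 in the same order. Just outside it, cg09087901 had 0.522, 0.283, 0.525 and 0.583 in that order, and cg06305609 had 0.768, 0.733, 0.467 and 0.610. At these 4 sites the spreads were between 0.299 and 0.3003, so members and non-members at this limit differ by less than 0.002. A different line was the lowest at cg08654334 (LNCaP-FGC) and at cg09087901 (PC3), while DU145 was the lowest at the other two.

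At the lower limit, cg23248452 (0.2006 in LNCaP-FGC) and cg00799727 (0.2008 in PC3) were the members with the lowest single beta. Sites cg13662243, with 0.199 in LNCaP-FGC, and cg18984151, with 0.198 in RWPE-1, fell just outside. At the upper limit, cg07967308 (0.7999 in DU145) and cg20154346 (0.7996 in PC3) were members. Sites cg25743584, with 0.8001 in LNCaP-FGC, and cg15448245, with 0.8002 in PC3, were not. The other 3 lines of each of these 8 sites lay inside the range of 0.2 to 0.8.

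DU145 was the line with the highest level over the members as deposited. The median beta of the 619 sites was 0.657 in DU145 (quartiles 0.483 and 0.746), 0.601 in RWPE-1 (0.431 and 0.707), 0.565 in PC3 (0.435 and 0.686) and 0.554 in LNCaP-FGC (0.427 and 0.659). DU145 was the highest line at 305 members (49.3%) and the lowest at 68 (10.99%) in the deposited betas, whereas after quantile normalization it was the highest at 0 members and the lowest at 499. LNCaP-FGC was the lowest line at 240 members (38.8%) and the highest at 90 as deposited, but it was the lowest at 71 after quantile normalization. PC3 was the highest at 104 and the lowest at 158, and RWPE-1 was the highest at 120 and the lowest at 153 as deposited, against 49 lowest for PC3 and 453 highest for RWPE-1 after quantile normalization. The order of the lines over these sites therefore depended on how the arrays were scaled. Nor was it particular to the members as deposited. At the 596 partly methylated sites beyond the spread limit, DU145 was the highest line at 52.3% and the lowest at 8.56%. LNCaP-FGC was the lowest there at 40.9%, RWPE-1 at 25.8% and PC3 at 24.7%. Among the members, RWPE-1 was the lowest at 24.7% and PC3 at 25.5%.

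**Figure D3:**
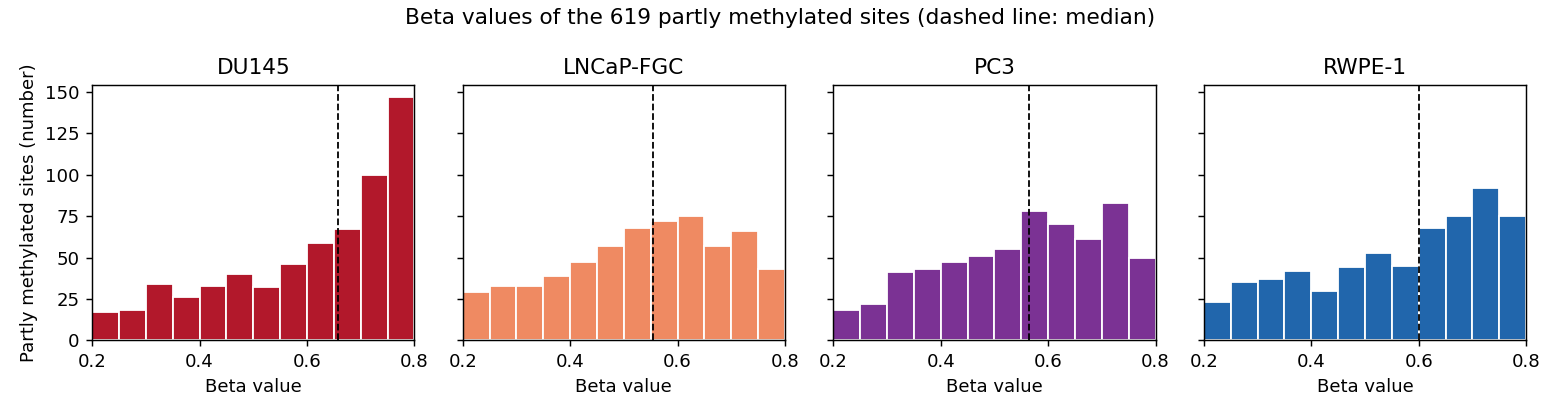
Number of members (vertical axis) by beta value (horizontal axis, in steps of 0.05) in each of the 4 lines, with the median as a dashed line. As deposited, 247 of the 619 members were from 0.7 to 0.8 in DU145, against 167 in RWPE-1, 133 in PC3 and 109 in LNCaP-FGC.

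As deposited, the betas of DU145 were crowded at the top of the range. It held 247 members with a beta from 0.7 to 0.8, against 167 in RWPE-1, 133 in PC3 and 109 in LNCaP-FGC. It was the highest line at 49.1% of the members with a mean from 0.7 to 0.8, at 59.6% of those from 0.6 to 0.7 and at 21.4% of the 28 members with a mean from 0.2 to 0.3, where PC3 was the highest at 14. The DU145 array also read highest at 62.7% of the sites above 0.8 in all lines, with a median there of 0.925 against 0.889 to 0.904 on the other arrays. When the arrays were rescaled linearly to common 1st and 99th percentiles, DU145 was still the highest at 260 members and its median was 0.6502. After quantile normalization, however, DU145 was the highest at 0 members and its median was 0.457. Linear rescaling also moved RWPE-1, which was then the highest at 169 members and the lowest at 136.

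In the deposited betas, the members of each cancer line lay on both sides of RWPE-1. The median difference, cancer line minus RWPE-1, was 0.03 in DU145 (quartiles -0.02 and 0.11), -0.01 in PC3 (-0.07 and 0.06) and -0.02 in LNCaP-FGC (-0.11 and 0.04). The direction in DU145 held only on the deposited and linearly rescaled betas: its median difference was 0.02 after linear rescaling and -0.22 after quantile normalization, where DU145 was above RWPE-1 at 0 members. Differences of less than 0.1 either way were found at 410 members in PC3 (66.2%), 395 in DU145 (63.8%) and 369 in LNCaP-FGC (59.6%). As deposited, 169 members (27.3%) were higher in DU145 than in RWPE-1 by at least 0.1, beside 25.0% of all sites, and 55 (8.89%) were lower by that much, beside 4.79% of all sites, but after quantile normalization these counts were 0 and 565. In LNCaP-FGC, 85 members (13.7%) were higher and 165 (26.7%) lower, beside 18.6% and 15.1% of all sites. In PC3, 92 (14.9%) were higher and 117 (18.9%) lower, beside 19.7% and 11.1% of all sites. These counts also moved with quantile normalization, to 28 higher and 298 lower in LNCaP-FGC and to 15 higher and 270 lower in PC3. The rule bounded these differences to under 0.3 and kept sites with room to move both ways, so nothing is read from the comparison with all sites.

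In the deposited betas, the control lay between those of the cancer lines at 346 members (55.9%). It was below all 3 at 153 (24.7%), beside 22.2% of all sites, and above all 3 at 120 (19.4%), beside 11.4% of all sites. These counts turned with the scaling: after linear rescaling RWPE-1 was above all 3 more often than below them, and after quantile normalization it was above them at 453 members and below at 0. The mean of the cancer lines minus RWPE-1 had a median of -0.0029 over the members as deposited.

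Between pairs of lines as deposited, the smallest median absolute differences were 0.0669 for DU145 and RWPE-1 and 0.0674 for PC3 and RWPE-1, and the largest was 0.0958 for DU145 and LNCaP-FGC. LNCaP-FGC differed by 0.0723 from PC3 and by 0.0760 from RWPE-1, and DU145 and PC3 differed by 0.0790. This order depended on the scaling. Linear rescaling kept its ends, at 0.0625 for DU145 and RWPE-1 and 0.0951 for DU145 and LNCaP-FGC. After quantile normalization, however, DU145 and RWPE-1 were the furthest apart of all pairs, at 0.220, and LNCaP-FGC and PC3 the closest, at 0.0697. Over all sites as deposited, the median absolute differences were smaller, from 0.0237 (DU145 and RWPE-1) to 0.0385 (DU145 and LNCaP-FGC). Across the 619 sites Pearson's r between lines ran from 0.726 (DU145 and LNCaP-FGC) to 0.774 (DU145 and RWPE-1). In the 596 partly methylated sites beyond the spread limit it ran from -0.205 to 0.0992. The limit on the spread forces the first set of correlations up and the second down, so both describe the choice of sites. DU145 was higher than LNCaP-FGC at 458 of the 619 members and higher than PC3 at 442 as deposited, a direction that the quantile normalization above does not keep.

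Sites were also chosen on 3 lines, with the same limits, and the line left out was read. The betas are the ones that the rule used, so this is a description and not support from other data. The line left out was then partly methylated at a majority of the chosen sites in every case. Chosen on the 3 cancer lines, 1041 sites qualified, and RWPE-1 was from 0.2 to 0.8 at 750 of them (72.0%), beside 21.5% of all sites. Chosen without PC3, 934 sites qualified, and PC3 was partly methylated at 746 (79.9%), beside 24.7%. Chosen without LNCaP-FGC, 1148 sites qualified, and LNCaP-FGC was partly methylated at 813 (70.8%), beside 24.3%. Chosen without DU145, 1415 sites qualified, and DU145 was partly methylated at 815 (57.6%), beside 19.4%. The 4 sets share the 619 members, which make up most of the partly methylated sites in each line left out. Apart from them, these sites numbered 131 in RWPE-1, 127 in PC3, 194 in LNCaP-FGC and 196 in DU145. Each line enters 3 of the choices, so the shares are not separate results, and with 1 array per line they carry no test.

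**Figure D4:**
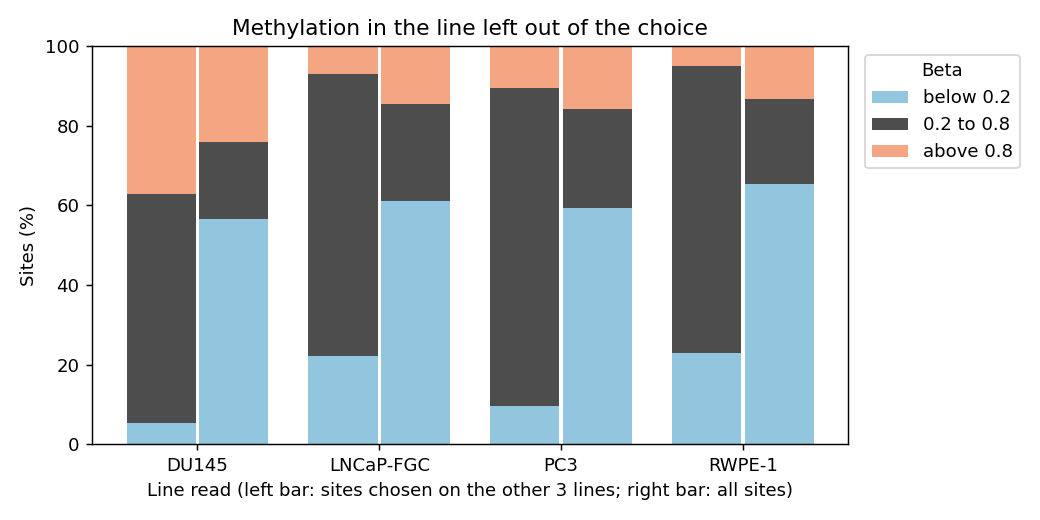
Share of sites (vertical axis, %) with a beta below 0.2, from 0.2 to 0.8 and above 0.8 in each line, for sites chosen as partly methylated and similar in the other 3 lines (left bar of each pair) and for all 27541 sites (right bar). The dark part is 57.6% to 79.9% in the left bars and 19.4% to 24.7% in the right bars.

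Where the line left out was not partly methylated, the end at which it lay is given beside the share of all sites at that end. DU145 was above 0.8 at 525 of its 1415 sites (37.1%, beside 24.2% of all sites) and below 0.2 at 75 (5.30%, beside 56.5%). LNCaP-FGC was above 0.8 at 82 of 1148 sites (7.14%, beside 14.7%) and below 0.2 at 253 (22.0%, beside 61.1%). RWPE-1 was above 0.8 at 52 of 1041 sites (4.995%, beside 13.2%) and below 0.2 at 239 (23.0%, beside 65.3%). PC3 was above 0.8 at 98 of 934 sites (10.5%, beside 15.9%) and below 0.2 at 90 (9.64%, beside 59.4%). DU145 had the largest share of sites above 0.8, and RWPE-1 the largest share below 0.2, both over the chosen sites and over the whole array. After quantile normalization the ends for RWPE-1 and DU145 were the other way round, with 24.4% above 0.8 and 7.58% below 0.2 in RWPE-1, and 11.2% above and 14.8% below in DU145. The shares of partly methylated sites after that normalization were 74.9% in PC3, 74.1% in DU145, 68.1% in LNCaP-FGC and 68.0% in RWPE-1, and after linear rescaling they ran from 61.9% to 78.9%.

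The level in the line left out was graded with the level in the others. For RWPE-1 the median beta was 0.257 at the 211 sites with a cancer-line mean from 0.2 to 0.4, 0.397 at the 372 sites from 0.4 to 0.6 and 0.675 at the 458 sites from 0.6 to 0.8. The same 3 classes gave medians of 0.339, 0.482 and 0.665 in PC3, of 0.242, 0.413 and 0.587 in LNCaP-FGC and of 0.527, 0.704 and 0.802 in DU145. In each line the median was higher in each class than in the one below it, but the quartiles of neighbouring classes overlapped. Pearson's r between the line left out and the mean of the others was 0.507 for RWPE-1 over 1041 sites, 0.479 for DU145 over 1415, 0.459 for PC3 over 934 and 0.406 for LNCaP-FGC over 1148. Over all sites it was higher, at 0.833, 0.839, 0.849 and 0.753 in that order. The choice confines the other lines to 0.2 to 0.8, a narrower range than that of all sites, so these values are not ranked. Sites are not independent replicates, so these describe the 4 arrays and carry no p-value.

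**Figure D5:**
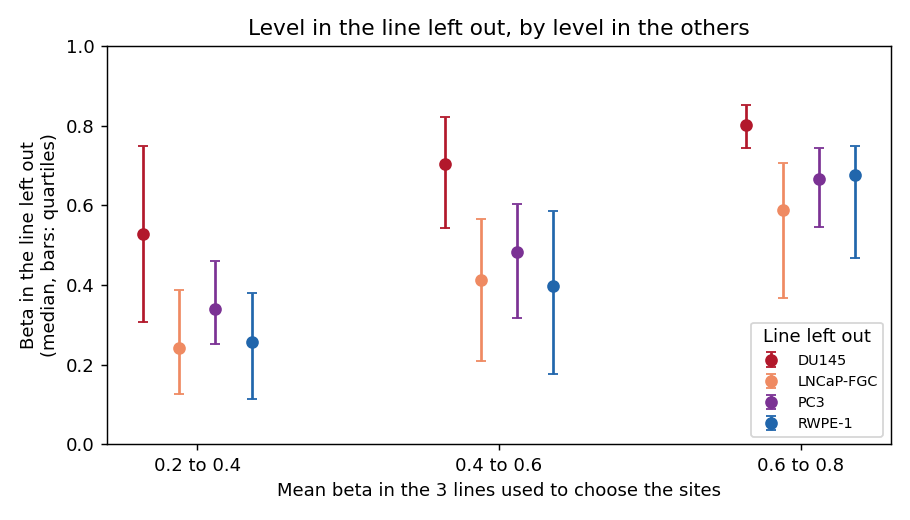
Beta in the line left out (vertical axis, points are medians and bars run from the lower to the upper quartile) for sites grouped by their mean beta in the 3 lines that chose them (horizontal axis). The median is higher in each class than in the one below it in all 4 lines, from 0.257 to 0.675 in RWPE-1 and from 0.527 to 0.802 in DU145.

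Among sites partly methylated in 3 lines, those with a spread below 0.3 and those with a larger spread were set side by side, as deposited. The beta left out lay a median of 0.124 from the mean of the others in RWPE-1, 0.0978 in PC3, 0.159 in LNCaP-FGC and 0.159 in DU145. Over all sites the distances were smaller, at 0.0298, 0.0366, 0.0331 and 0.0437 in that order. At sites partly methylated in the other 3 lines but with a spread of 0.3 or more among them, these distances were 0.195, 0.188, 0.254 and 0.246. The share of such sites that were partly methylated in the line left out was lower than for the similar sites in each line as deposited, at 68.7% in RWPE-1 (72.0% for similar sites), 71.6% in PC3 (79.9%), 58.6% in LNCaP-FGC (70.8%) and 53.6% in DU145 (57.6%). The larger distances at the dissimilar sites are in part built in. Where the other 3 lines were 0.3 or more apart, even a beta equal to the highest or lowest of them lay far from their mean. Nothing is therefore read from the distances, and the shares were not tested.

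The other classes of site were read in the same way on the deposited betas, without a test. Sites below 0.2 in 3 lines were below 0.2 in the line left out at 99.04% in RWPE-1, 95.2% in PC3, 93.7% in DU145 and 92.8% in LNCaP-FGC, beside 56.5% to 65.3% of all sites. Sites above 0.8 in 3 lines were above 0.8 in the line left out at 95.6% in DU145, 85.2% in PC3, 73.2% in RWPE-1 and 68.7% in LNCaP-FGC, beside 13.2% to 24.2% of all sites. The shares for similar partly methylated sites, 57.6%, 79.9%, 72.0% and 70.8% in that order of lines, stood beside 19.4% to 24.7% of all sites. The classes start from different shares of all sites, so their shares are given side by side and not ranked. At sites above 0.8 in the other lines, LNCaP-FGC was partly methylated at 638 of 2285 (27.9%, beside 24.3% of all sites), RWPE-1 at 481 of 2144 (22.4%, beside 21.5%), PC3 at 255 of 1842 (13.8%, beside 24.7%) and DU145 at 59 of 1642 (3.59%, beside 19.4%).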

How the data were processed

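Per the labels, bisulfite-treated genomic DNA of 4 lines was read on Illumina HumanMethylation27 arrays, 1 array per line. The authors deposited beta values (a fraction from 0 to 1), and BeadStudio is named in the submitters' processing notes; the sources used here do not give background handling, normalization or filters. The table used holds no intensities or detection p-values, so the number of arrays limits precision and the signal behind each beta is unknown. Columns were matched to lines by name. Of 27578 sites, 37 with a blank beta were left out. The rule was applied to the betas as deposited with Python 3.11.15, pandas 2.3.3 and NumPy 2.4.6. It was also tested on simulated data whose sites lay away from its limits, so that check does not bear on sites near a limit. Alternatives were a range of 0.3 to 0.7, a spread limit of 0.2 or none, quantile normalization, linear rescaling to the arrays' mean 1st and 99th percentiles, and leaving out each line. The members, lists and tests were chosen with earlier results of these data known. No test was made. The planned comparison of expression, its limma test and the gene lists (imprinted, cancer-testis, prostate and other marker genes) were not used, because sites and probes were not paired with genes. Sites named are the 2 members with the smallest spread, the 2 with the largest, the 2 with a mean nearest 0.5, and the 2 nearest each limit on either side. Reading a line left out of the choice, and the rescaled differences between lines, were added after the data were seen.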

Additional observations from a re-analysis of the deposited data

How the results depend on the processing

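The number of partly methylated sites was set by the limits: 619 became 211 with a range of 0.3 to 0.7, 374 with a spread below 0.2 and 1215 with no limit on the spread, and 934 (without PC3) to 1415 (without DU145) when 1 line was left out of the rule, with 1041 without RWPE-1 and 1148 without LNCaP-FGC. Narrower limits can only remove sites, and dropping a limit or a line can only add them, so the direction of these changes was fixed. Linear rescaling gave 651 sites, of which 602 were among the 619, and quantile normalization gave 806, of which 375 were. Over the members, quantile normalization moved the median to 0.457 in DU145 and 0.694 in RWPE-1. It made DU145 the highest line at 0 members and the lowest at 499, RWPE-1 the highest at 453 and the lowest at 0, and LNCaP-FGC and PC3 the lowest at 71 and 49. By construction it gives every array the same number of sites at each level; it shifted the members by a median of -0.18 in DU145 and 0.09 in RWPE-1, whose shares of all sites below 0.5 were 64.6% and 75.3%. The share of DU145 sites partly methylated when chosen on the other lines became 74.1%. The median differences from RWPE-1 became -0.22 in DU145, whose sign turned from 0.03, -0.0948 in LNCaP-FGC and -0.0881 in PC3. The other 28 of 47 alternative values stayed within 1.5 times (counts) or within 1 SD of the 3 cancer lines (levels and shares). The comparisons of expression could not be run under any alternative. No paired analysis was possible because each line has 1 array and the labels give no replicate numbers. With no repeat array, the error of a single beta is unknown.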
